A study of Mus musculus with 8 samples.

Results

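The genes described here build the lysosome, the acidic organelle in which proteins, sugars, lipids and worn-out cell parts are digested. They are 44 genes chosen by name: 10 cathepsins (proteases), 9 glycosidases (enzymes that cut sugars), 5 genes of lipid digestion, its activators and the peptidase Tpp1, 5 lysosomal membrane proteins, the transcription factor Tfeb, and 14 subunits and accessory proteins of the V-ATPase. They stand among 17106 genes and other transcripts that were bright enough to be tested. Each was read from its brightest probe over the 8 arrays. The cells were dermal fibroblasts from the skin of newborn C57BL/6 mice, digested out with dispase and collagenase and grown in serum-containing medium. In culture, 4 samples received control oligonucleotides and 4 received miR-127-3p mimic oligonucleotides. This microRNA has its gene in the imprinted Dlk1-Dio3 region. The time between transfection and harvest was not given in the sources used here. The labels do not say whether the samples came from separate cultures or animals, so the p-values below measure the spread between these samples, which may be technical.

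Lysosomal enzymes are made in the endoplasmic reticulum and sorted to the organelle by a mannose 6-phosphate tag or by membrane carriers. The V-ATPase, a rotary pump with a membrane ring (V0) and a cytosolic motor (V1), fills the lumen with protons, and the low pH switches the enzymes on. The transcription factor TFEB and its relatives bind an E-box in the promoters of many of these genes, a site known as the CLEAR element. An enlarged lysosome compartment is a known trait of senescent fibroblasts, whose staining for beta-galactosidase depends on the lysosomal enzyme encoded by Glb1. The title names myofibroblast senescence as the setting, and the comparison asked whether the mimic changed the transcripts of these genes.

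The microRNA itself is shown because it defines the treatment. Its mature form lies in mouse GRCm38.p6 at chr12:109592888-109592909 on the plus strand, and capitals mark the seed, bases 2 to 8 (sequence from RefSeq).
miR-127-3p: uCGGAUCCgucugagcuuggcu
The chemistry and exact sequence of the mimic were not given in the sources used here.

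Stretches of the promoters are shown because some members carry the E-box letters of the CLEAR element, among them members that rose and members that did not pass the test. The site is known from the promoters of many of these genes, so its share among them is a description and not an independent result. A RefSeq table (GRCm38.p6) held windows of 250 bases before to 50 bases after the transcription start for 38 of the 44 genes. The E-box CACGTG, which reads the same on both strands, lay in a window of 13 of these 38 genes (34.2%), against 8.09% of all 27025 genes in the table and 11.7% of the 9610 tested genes with a window. The longer form TCACGTGA, which contains the E-box and also reads the same on both strands, lay in 7 of 38 (18.4%), against 1.12% of all genes and 2.26% of those tested. The 10-letter palindrome made by a further G before and C after, the longest form of the CLEAR letters counted, was in 0 of the 38. It was in 0.370% of all genes and in 0.801% of those tested. For the 7 genes with the longer form, 30 bases around a match follow, 5′ to 3′ on the gene's strand in GRCm38.p6, with the 8 letters in capitals.
Ctsd (chr7:142387908-142387937, minus strand): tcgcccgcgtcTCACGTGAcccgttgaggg
Ctsa (chr2:164833749-164833778, plus strand): tgagcaaactgTCACGTGAtgcagatgctc
Atp6v0e (chr17:26676387-26676416, plus strand): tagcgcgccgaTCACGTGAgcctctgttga
Atp6v0d1 (chr8:105566050-105566079, minus strand): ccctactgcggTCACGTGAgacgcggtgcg
Mcoln1 (chr8:3500462-3500491, plus strand): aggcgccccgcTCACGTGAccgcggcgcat
Atp6v1a (chr16:44139373-44139402, minus strand): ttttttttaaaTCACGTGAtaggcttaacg
Gla (chrX:134601215-134601244, minus strand): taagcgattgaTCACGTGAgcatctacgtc
Ctsa and Gla held a second match each. Lamp1 had no TCACGTGA but 4 E-boxes within 80 bases upstream of its start (chr8:13159081-13159160, plus strand, E-boxes in capitals).
Lamp1: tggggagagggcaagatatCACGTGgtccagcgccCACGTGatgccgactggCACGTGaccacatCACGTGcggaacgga
The 250 bases upstream of Ctsd, the member with the largest rise, held an E-box at each of 2 places (chr7:142387828-142388077, minus strand, E-boxes in capitals).
Ctsd: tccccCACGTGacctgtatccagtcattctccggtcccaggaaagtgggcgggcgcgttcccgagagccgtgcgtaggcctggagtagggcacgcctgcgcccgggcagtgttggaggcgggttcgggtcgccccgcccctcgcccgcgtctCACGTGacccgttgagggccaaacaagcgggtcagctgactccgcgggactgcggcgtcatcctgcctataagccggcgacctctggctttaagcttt

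Well above background were 20775 to 23485 probes on an array. All 8 fibroblast genes checked were well above background on all 8 arrays, among them the collagen genes Col1a1 and Col1a2 (log2 fold changes of 0.07 and 0.06, not past the test). Dcn, a matrix proteoglycan gene, was higher with the mimic (1.18) and the growth factor receptor gene Pdgfra lower (-0.97). The call of Dcn was lost without control 1 or without miR-127-3p 2, 4 or 7 (adjusted p up to 0.0824), and with the slide column as a block it was 0.0573. All changes below are log2 fold changes, mimic over control, and levels are log2 signals relative to the array's own 75th percentile. A gene is said to rise or fall where limma gave an adjusted p under 0.05 over all 17106 features, with n = 4 arrays in each group.

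Of the 44 lysosomal genes, 42 were well above background on all 8 arrays and were tested. With the mimic 26 of these rose and 1 fell, and 15 did not pass the test. Of all 17106 features 15.9% rose and 18.3% fell (34.2% in all), and of the 12044 with a gene symbol 18.2% rose and 20.1% fell. The median change of the 42 genes was 0.45, against 0.02 for all features, and 36 of the 42 had a change above 0. The rises were mostly modest: 14 genes rose by at least 1.5-fold and 2 by at least 2-fold, Ctsd and Tpp1. In 25 of the 42 genes every mimic array lay above every control array, against 15.1% of all features, and in 1 gene, Lipa, every mimic array lay below, against 19.0%. In bulk RNA a larger share of cells rich in lysosomes and more of these transcripts per cell cannot be told apart.

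**Figure D1:**
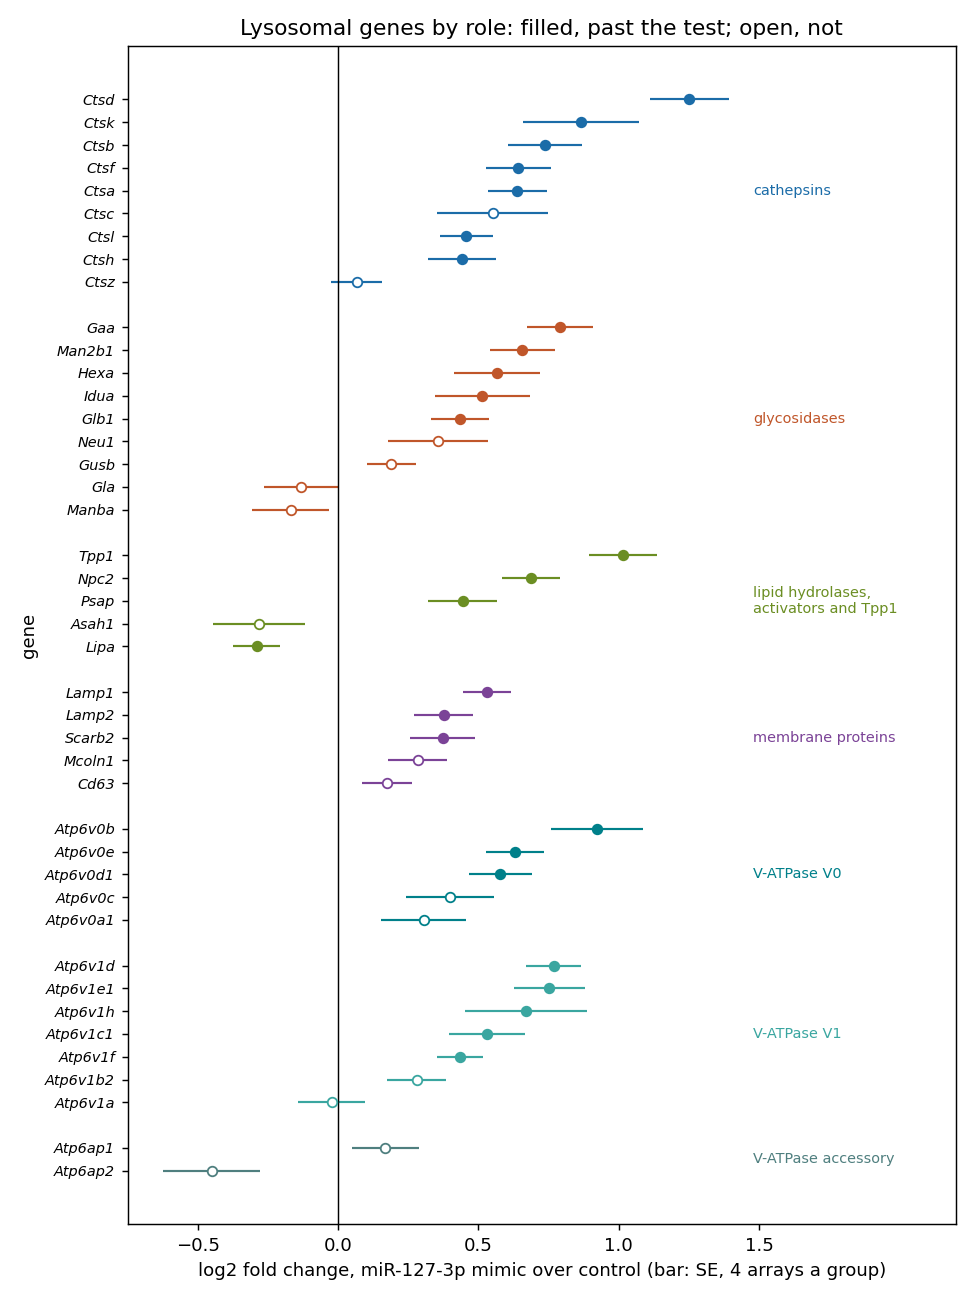
Log2 fold change (mimic over control, horizontal axis) of the 42 tested lysosomal genes, grouped by role and sorted within each role. Points are the fitted values and bars their standard errors (4 arrays per group); filled points passed the test. Ctsd (1.25) and Tpp1 (1.02) lie farthest to the right, and the accessory subunit gene Atp6ap2 (-0.45, open) farthest to the left.

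All 8 arrays were on 1 slide, in 2 rows and 4 columns, with both groups in each row and each column. With the row as a block 25 members rose. With the column as a block 17 rose and 0 fell: Ctsh, Hexa, Glb1, Idua, Psap, Lipa, Lamp2, Scarb2, Atp6v1c1 and Atp6v1h lost their calls (adjusted p between 0.0572 and 0.107) with the same fold changes. Within row 1 and row 2 alone, with 2 arrays per group each, 10 and 5 members rose, and the members' median change was 0.46 and 0.45. The median shift was thus alike in both rows, while fewer genes passed with fewer arrays.

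Array by array, the median of the 42 genes relative to the control mean was -0.06, 0.16, -0.15 and 0.06 in controls 1, 3, 6 and 8. It was 0.56, 0.46, 0.43 and 0.39 in miR-127-3p 2, 4, 5 and 7. The groups did not overlap. Control 3 was the highest control and control 6 the lowest, and miR-127-3p 2 was the highest mimic array.

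**Figure D2:**
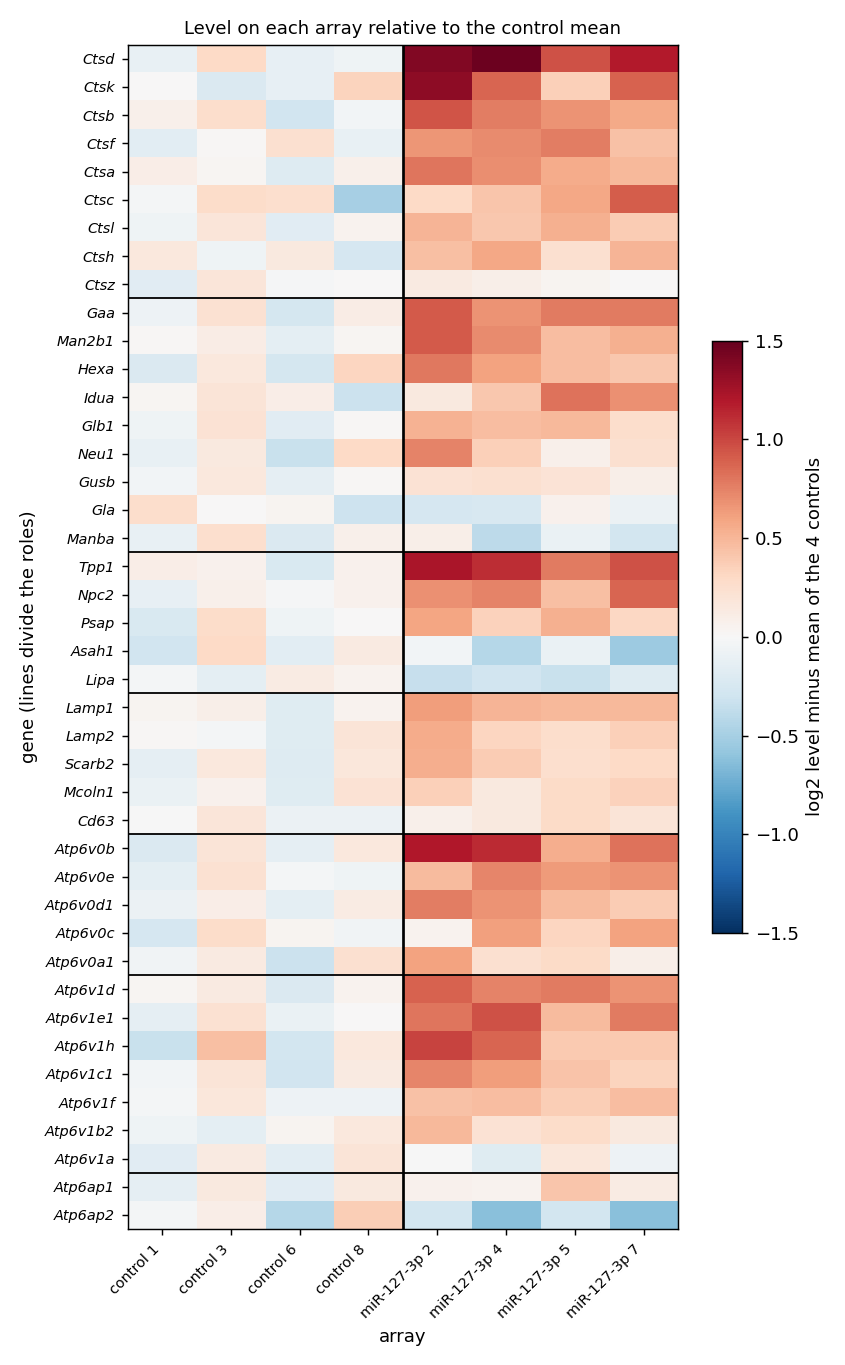
Level of each of the 42 genes (rows, in the same order as by fold change within role) on each of the 8 arrays (columns), as log2 signal minus the mean of the 4 controls; red is higher and blue lower. Most rows are red across all 4 mimic arrays, while Lipa is blue in all 4 and rows such as Ctsz, Gla and Atp6v1a show no such block.

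The cathepsins, the main proteases of the lysosome, had a median change of 0.64 (0.42 with normexp background correction). Of 10 cathepsins 9 were tested, and 7 rose and 0 fell. Ctsd encodes the main aspartic protease of the organelle. Its level was 5.99, 6.41, 5.99 and 6.05 in controls 1, 3, 6 and 8 and 7.49, 7.58, 7.07 and 7.30 in miR-127-3p 2, 4, 5 and 7. Every mimic array exceeded every control, a 2.38-fold rise (log2 fold change 1.25, SE 0.14, adjusted p = 0.000342). A second probe for the gene rose by 1.15. Ctsb, a cysteine protease, read 5.54, 5.72, 5.18 and 5.42 in the controls and 6.40, 6.23, 6.14 and 6.04 with the mimic, in the same array order, which is kept below. The groups were apart, with a rise of 0.74 (SE 0.13, adjusted p = 0.00337).

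Ctsa, a serine carboxypeptidase that also shields the sialidase and beta-galactosidase of the lysosome, read 5.86, 5.79, 5.56 and 5.84 in controls and 6.57, 6.46, 6.32 and 6.24 with the mimic. It rose by 0.64 (SE 0.10, adjusted p = 0.00222) without overlap of the groups. Ctsf, another cysteine protease, read -0.85, -0.68, -0.46 and -0.81 in controls and -0.04, 0.01, 0.07 and -0.26 with the mimic. It rose by 0.64 as well (SE 0.11, adjusted p = 0.00335), again without overlap. Ctsk, the collagen-cutting cathepsin best known from osteoclasts, rose by 0.86 (SE 0.21, adjusted p = 0.0129), and its mimic arrays were spread from 5.38 to 6.37 against 4.81 to 5.36 in controls. Ctsl rose by 0.46 and the aminopeptidase gene Ctsh by 0.44. The call of Ctsh was lost without control 8 or without miR-127-3p 4 or 7 (adjusted p between 0.0520 and 0.0669).

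The other cathepsins were not called. Ctsz, a carboxypeptidase, had overlapping levels of 5.24, 5.60, 5.40 and 5.42 in controls and 5.55, 5.51, 5.46 and 5.42 with the mimic (log2 fold change 0.07, SE 0.09, adjusted p = 0.608). Ctsc, a dipeptidyl peptidase that activates granule proteases of blood cells, had a change of 0.55 (SE 0.20, adjusted p = 0.0614). Its groups did not overlap, and it passed without control 3 (adjusted p = 0.0481). Ctso was not well above background on any array and was not tested.

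Of 9 glycosidases 5 rose and 0 fell, with a median change of 0.43. Gaa, which digests glycogen, read 5.05, 5.36, 4.87 and 5.24 in controls and 6.05, 5.81, 5.91 and 5.92 with the mimic. The groups were apart, and the rise was 1.73-fold (log2 fold change 0.79, SE 0.12, adjusted p = 0.00141), with 1.21 on a second probe. Man2b1, the acid alpha-mannosidase, read 3.29, 3.38, 3.12 and 3.30 in controls and 4.20, 3.98, 3.74 and 3.81 with the mimic, without overlap. It rose by 0.66 (SE 0.12, adjusted p = 0.00311).

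Glb1 encodes the beta-galactosidase behind the usual senescence stain. It read 2.55, 2.83, 2.44 and 2.63 in controls and 3.14, 3.07, 3.10 and 2.88 with the mimic, a rise of 1.35-fold without overlap (log2 fold change 0.43, SE 0.10, adjusted p = 0.0131). With the slide column as a block its adjusted p was 0.0671. Ctsa, whose product binds this enzyme, rose by 0.64, and Neu1, the sialidase of the same complex, had a change of 0.36 (SE 0.18, adjusted p = 0.156) with overlapping groups.

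Hexa, the alpha subunit of hexosaminidase A, read 4.14, 4.51, 4.10 and 4.68 in controls and 5.14, 4.97, 4.82 and 4.76 with the mimic. The highest control, control 8, lay just under the lowest mimic array, and the rise was 0.56 (SE 0.15, adjusted p = 0.0218). Idua, which digests the sugar chains of proteoglycans, rose by 0.51 (SE 0.17, adjusted p = 0.0457) with overlapping groups, and by 0.63 on its second probe. The probes differed in mean level (5.05 and 1.16). On control 8 and miR-127-3p 5 the brighter one read 4.47 and 5.61, and the probe of Itgam, a marker listed below, 4.62 and 5.71. Whether the brighter probe reads Idua alone was not tested. The call of Hexa was lost without control 1 or 6 or miR-127-3p 2 or 4 (adjusted p up to 0.0600). That of Idua was lost without control 1, 6 or 8 or miR-127-3p 4, 5 or 7 (adjusted p up to 0.113).

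Several sugar-cutting enzymes did not pass the test. Gla, the alpha-galactosidase that clears globotriaosylceramide, read 7.45, 7.19, 7.23 and 6.87 in controls and 6.93, 6.94, 7.24 and 7.09 with the mimic. The groups overlapped, and the change was -0.13 (SE 0.13, adjusted p = 0.480). Manba, the beta-mannosidase, had -0.17 (SE 0.14, adjusted p = 0.377) and Gusb, the beta-glucuronidase, 0.19 (SE 0.09, adjusted p = 0.125). With quantile scaling of the arrays Gusb passed as a rise (adjusted p = 0.0380).

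Among the 5 genes of lipid digestion, its activators and Tpp1, members went both ways: 3 rose and 1 fell. Tpp1, a peptidase that removes tripeptides from protein ends, read 1.21, 1.18, 0.89 and 1.18 in controls and 2.34, 2.22, 1.89 and 2.07 with the mimic. The groups were far apart, and the rise was 2.02-fold (log2 fold change 1.02, SE 0.12, adjusted p = 0.000440). Npc2, which hands free cholesterol to the lysosomal membrane, read 5.35, 5.55, 5.45 and 5.53 in controls and 6.15, 6.22, 5.92 and 6.35 with the mimic. It rose by 0.69 (SE 0.10, adjusted p = 0.00153) without overlap.

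Psap, the precursor of the saposins that present lipids to their enzymes, read 5.09, 5.59, 5.25 and 5.33 in controls and 5.90, 5.66, 5.85 and 5.63 with the mimic. Control 3 came close to the lowest mimic array, and the rise was 0.44 (SE 0.12, adjusted p = 0.0237). Lipa, the acid lipase that frees cholesterol from its esters, was the member that fell. It read 1.77, 1.66, 1.92 and 1.86 in controls and 1.46, 1.51, 1.47 and 1.61 with the mimic, with no overlap (log2 fold change -0.29, SE 0.08, adjusted p = 0.0271). Both calls depended on single arrays: that of Psap was lost without control 1, 6 or 8 or miR-127-3p 2 or 5 (adjusted p up to 0.0593), and that of Lipa without control 1, 6 or 8 or miR-127-3p 2, 4 or 5 (adjusted p up to 0.0728).

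Asah1, the acid ceramidase, read 2.78, 3.37, 2.91 and 3.21 in controls and 3.02, 2.64, 2.96 and 2.52 with the mimic. The groups overlapped (log2 fold change -0.28, SE 0.16, adjusted p = 0.220). On another probe for the gene the change was -0.13.

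Of 5 membrane proteins 3 rose and 0 fell, with a median change of 0.37 and no rise of 1.5-fold. Lamp1, a heavily glycosylated protein that lines the membrane, read 7.63, 7.68, 7.40 and 7.64 in controls and 8.22, 8.10, 8.07 and 8.08 with the mimic. The groups did not overlap, and the rise was 0.53 (SE 0.09, adjusted p = 0.00221). Lamp2, its relative, read 4.63, 4.58, 4.43 and 4.80 in controls and 5.17, 4.94, 4.87 and 4.97 with the mimic. It rose by 0.38 (SE 0.11, adjusted p = 0.0252), and a probe for another of its transcripts gave 0.51.

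Scarb2, also called LIMP-2, is a receptor that carries an enzyme to the lysosome. It read 1.69, 1.99, 1.63 and 1.99 in controls and 2.38, 2.21, 2.08 and 2.13 with the mimic, a rise of 0.37 (SE 0.12, adjusted p = 0.0367) without overlap. The calls of Lamp2 and Scarb2 were each lost without control 1 or 6 or miR-127-3p 2, 4 or 7 (adjusted p up to 0.0636 and 0.0936). Cd63, a tetraspanin of lysosomes and exosomes, read 8.01, 8.19, 7.92 and 7.92 in controls and 8.08, 8.15, 8.29 and 8.20 with the mimic, with overlap (log2 fold change 0.17, SE 0.09, adjusted p = 0.167). Mcoln1, the calcium channel that signals from the lysosome, had a change of 0.28 (SE 0.10, adjusted p = 0.0662) and passed without control 8 (adjusted p = 0.0340).

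Of the 14 V-ATPase genes 8 rose and 0 fell, with a median change of 0.48. In the V0 ring 3 of 5 rose. Atp6v0b, a proteolipid of the ring, read 3.41, 3.82, 3.49 and 3.78 in controls and 4.83, 4.75, 4.17 and 4.45 with the mimic, a 1.89-fold rise without overlap (log2 fold change 0.92, SE 0.17, adjusted p = 0.00346). Atp6v0e, a small membrane subunit, read 5.80, 6.17, 5.91 and 5.88 in controls and 6.41, 6.67, 6.58 and 6.61 with the mimic, a rise of 0.63 (SE 0.10, adjusted p = 0.00223). Atp6v0d1, which joins the ring to the motor, read 3.61, 3.80, 3.56 and 3.83 in controls and 4.47, 4.38, 4.18 and 4.08 with the mimic, a rise of 0.58 (SE 0.11, adjusted p = 0.00514). In both the groups were apart.

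The 2 other V0 genes had smaller values with overlap. Atp6v0a1, a form of the large membrane arm, read 2.84, 3.02, 2.56 and 3.13 in controls and 3.49, 3.13, 3.17 and 2.98 with the mimic (log2 fold change 0.30, SE 0.15, adjusted p = 0.154). Atp6v0c, the main ring proteolipid, had a change of 0.40 (SE 0.16, adjusted p = 0.0829), and it passed without control 3 or without miR-127-3p 2 (adjusted p between 0.0319 and 0.0470).

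In the V1 motor 5 of 7 rose, and the 2 that did not pass were those of the catalytic core. Atp6v1d, the central shaft, read 4.35, 4.47, 4.10 and 4.38 in controls and 5.21, 5.07, 5.10 and 5.00 with the mimic, a 1.70-fold rise without overlap (log2 fold change 0.77, SE 0.10, adjusted p = 0.000630). Atp6v1e1, of the outer stalk, read 4.27, 4.64, 4.31 and 4.42 in controls and 5.21, 5.37, 4.89 and 5.19 with the mimic, a rise of 0.75 (SE 0.13, adjusted p = 0.00251). Atp6v1f, at the base of the shaft, read 5.21, 5.41, 5.16 and 5.17 in controls and 5.68, 5.70, 5.61 and 5.70 with the mimic, a rise of 0.43 (SE 0.08, adjusted p = 0.00442). Neither gene's groups overlapped.

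Atp6v1c1, a regulatory subunit whose release stops the pump, read 2.15, 2.38, 1.89 and 2.32 in controls and 2.92, 2.81, 2.61 and 2.52 with the mimic, also without overlap (0.53, SE 0.13, adjusted p = 0.0167). Atp6v1h, another regulator, rose by 0.67 (SE 0.22, adjusted p = 0.0427) with overlapping groups, and lost its call without control 1, 6 or 8 or miR-127-3p 2 or 4 (adjusted p up to 0.109). Atp6v1a, the subunit that splits ATP, read 3.72, 4.03, 3.74 and 4.08 in controls and 3.89, 3.71, 4.07 and 3.81 with the mimic. Its levels overlapped throughout (log2 fold change -0.02, SE 0.12, adjusted p = 0.903), and a second probe gave 0.08. Its partner in the core, Atp6v1b2, had 0.28 (SE 0.10, adjusted p = 0.0688).

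Neither accessory subunit passed the test. Atp6ap1, an assembly factor, read 3.39, 3.68, 3.36 and 3.68 in controls and 3.60, 3.58, 3.95 and 3.66 with the mimic (log2 fold change 0.17, SE 0.12, adjusted p = 0.316), and 0.09 on a second probe. Atp6ap2, also known as the prorenin receptor, had the lowest change of all members (-0.45, SE 0.17, adjusted p = 0.0767). It passed as a fall without control 6 (adjusted p = 0.0207).

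The transcript of Tfeb, the known regulator of many of these genes, was well above background on 1 of 8 arrays, with levels of -3.23, -3.47, -2.86 and -3.53 in controls and -2.68, -3.59, -4.14 and -1.92 with the mimic. It was not tested, and the array gives no fold for it. Of its relatives, Tfe3 had a change of 0.24 (adjusted p = 0.0642), Mitf of -0.07 (adjusted p = 0.886), and Tfec was below the filter. TFEB and TFE3 are regulated largely by where the protein sits in the cell, which the array does not measure.

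Read against the promoters, 10 of the 13 genes with an E-box in the window rose and 0 fell, with a median change of 0.58. Of the 23 tested genes with a window and no E-box 12 rose and 1 fell, with a median of 0.40. For the longer TCACGTGA, 4 of 7 rose (median 0.58): Ctsd, Ctsa, Atp6v0e and Atp6v0d1. Mcoln1 (0.28), Atp6v1a (-0.02) and Gla (-0.13), which carry it too, did not pass. Over all tested genes with a window, 28.6% of the 217 with TCACGTGA rose and 12.9% fell, against 18.1% and 20.7% of the 9393 without it. For CACGTG the shares that rose were 19.0% of 1127 with it and 18.2% of 8483 without. These are counts of letters in a window. Whether a factor sat on any of these sites was not measured, and the windows of 6 members (Ctsb, Ctsh, Asah1, Atp6v1b2, Atp6v1c1 and Atp6v1h) were not analysed here.

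**Figure D3:**
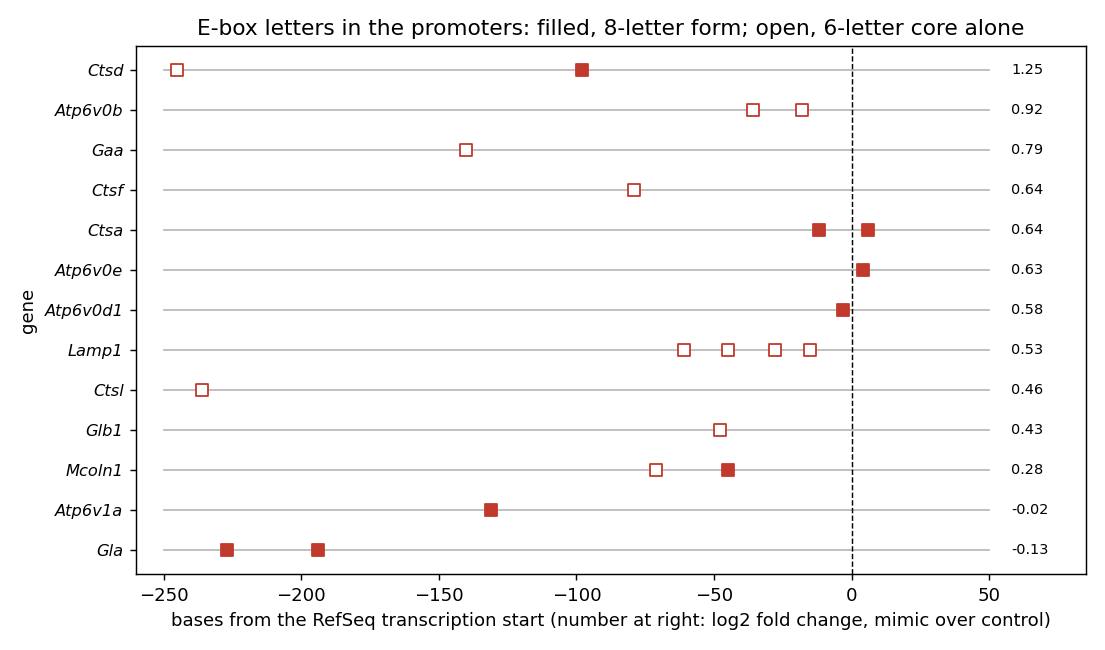
Places of the E-box in the promoter windows of the 13 members that hold it, in bases from the RefSeq transcription start (dashed line), sorted by log2 fold change (numbers at right). Filled squares are the longer 8-letter form and open squares the 6-letter core alone. Lamp1 holds 4 of them, and the matches of Ctsa, Atp6v0e and Atp6v0d1 lie within 13 bases of the start.

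Other genes of the lysosome were listed by function, and 79 of the 95 on the array were tested. Of these 34 rose (43%) and 3 fell, with a median change of 0.30. Of all features with a symbol 18.2% rose and 20.1% fell, and the counts of each sublist stand beside those shares. Among other proteases and their inhibitors 4 of 8 rose: Ctss (1.55, SE 0.32), a cathepsin prominent in antigen-presenting cells, the dipeptidyl peptidase Dpp7 (1.12, SE 0.21), Cstb (0.72, SE 0.12), which inhibits cathepsins, and the asparaginyl protease Lgmn (0.57, SE 0.11). Among other sugar, sulfate and lipid enzymes 14 of 24 rose and 0 fell. Aga, which cuts the link between sugar and asparagine, rose by 1.18 (SE 0.18), Gm2a, the activator that Hexa's enzyme needs, by 0.69 (SE 0.10), and Naglu by 0.61 (SE 0.09).

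Of 19 other membrane proteins and transporters 10 rose and 1 fell. Ostm1, the partner of a lysosomal chloride transporter, rose by 1.19 (SE 0.17), the peptide transporter gene Abcb9 by 0.61, Laptm4b by 0.47 and Laptm4a by 0.46, while the ion channel gene Tmem175 fell by 0.56 on the log2 scale (SE 0.08). Of 4 other V-ATPase genes 3 rose: Atp6v1g1 (0.56, SE 0.09), Tcirg1 (0.47) and Atp6v0a2 (0.42). The calls of Tcirg1 and Atp6v0a2 were lost without any 1 of 5 arrays (controls 1 and 8 and miR-127-3p 2, 4 and 7 for Tcirg1; controls 6 and 8 and miR-127-3p 2, 4 and 5 for Atp6v0a2; adjusted p up to 0.0904 and 0.0836).

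The remaining sublists hold genes that deliver enzymes and regulate the organelle. Of 9 that sort enzymes to the lysosome 1 rose (11.1%) and 2 fell, against 18.2% and 20.1% of all features with a symbol. Igf2r, the larger mannose 6-phosphate receptor, rose by 0.70 (SE 0.12), and M6pr, the smaller one, had 0.25 (adjusted p = 0.0950). The sorting adaptor genes Gga2 and Gga3 fell by 0.45 and 0.31 on the log2 scale, but lost their calls without control 8 or miR-127-3p 4 or 7 and, for Gga2, without control 1 or miR-127-3p 5 (adjusted p up to 0.0650 and 0.0601). Of 15 genes of lysosomal transcription and nutrient signalling 2 rose and 0 fell. That share of 13.3%, like the 11.1% of the sorting genes, rests on few genes and stands near the 18.2% of features with a symbol. Those that rose were Lamtor3 (0.30) and Lamtor4 (0.28), parts of the scaffold that holds mTORC1 at the lysosome. Both lost their calls without control 1 or 6 or miR-127-3p 2, 4 or 7, and Lamtor4 also without control 8 (adjusted p up to 0.0860 and 0.0958). With the slide column as a block Atp6v0a2, Gga2, Gga3, Lamtor3 and Lamtor4 were not called (adjusted p between 0.0735 and 0.0953). The sublists were not tested against each other.

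Macrophages are rich in lysosomes, and their markers were higher in the same arrays. Of 18 macrophage and leukocyte markers 13 were tested, and 11 rose and 0 fell, with a median change of 1.18. Of all features with a symbol 18.2% rose. Mrc1, counted among those that rose, was well above background on 1 control and 3 mimic arrays. Mrc1 and Adgre1, which was not called, passed the filter mainly through the mimic arrays. Lyz2 rose by 1.79 (SE 0.18), C1qa by 1.37 (SE 0.28), Cd68, itself a lysosomal membrane protein, by 1.30 (SE 0.25) and Csf1r by 1.04 (SE 0.14). The calls of C1qc, Fcer1g, Itgam and Mrc1 were lost on leaving out single arrays (C1qc without miR-127-3p 2 or 4, Mrc1 without these or control 6, the other two without any 1 of 6 arrays, with adjusted p up to 0.0934). The summed linear level of the list was 37.9 to 46.9 in controls and 68.3 to 81.5 with the mimic. Most of this sum came from the probe of Itgam, at 4.62 to 5.10 in controls and 5.09 to 5.71 with the mimic. The next brightest marker, Csf1r, lay at 2.19 to 2.37 and 2.96 to 3.65. The sum is therefore not a reading of the list as a whole. Of the defining markers, Ptprc, Aif1 and Spi1 were not well above background on any array. Csf1r was on all 8, and Adgre1 was on 2 control and 4 mimic arrays (1.18, adjusted p = 0.0981). Laptm5, too dim to be tested, was well above background on 0 control and 3 mimic arrays. Each of its mimic arrays (-3.01 to -1.12) lay above each control (-4.99 to -3.28). Cx3cr1, also not tested, was well above background on 1 control and 0 mimic arrays. Whether macrophages were in the cultures, and whether they had any part in the rise of the lysosomal genes, was not tested. On the array medians, miR-127-3p 5 stood lowest of the mimic arrays for the macrophage list (0.61, against 1.34 to 1.54 on the others). For the lysosomal genes its median was 0.43, and the others lay between 0.39 and 0.56. It was the lowest mimic array for 12 of the 26 genes that rose, and miR-127-3p 7 was the lowest for 11. Over all 42 tested members miR-127-3p 7 was the lowest for 17 and miR-127-3p 5 for 13.

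**Figure D4:**
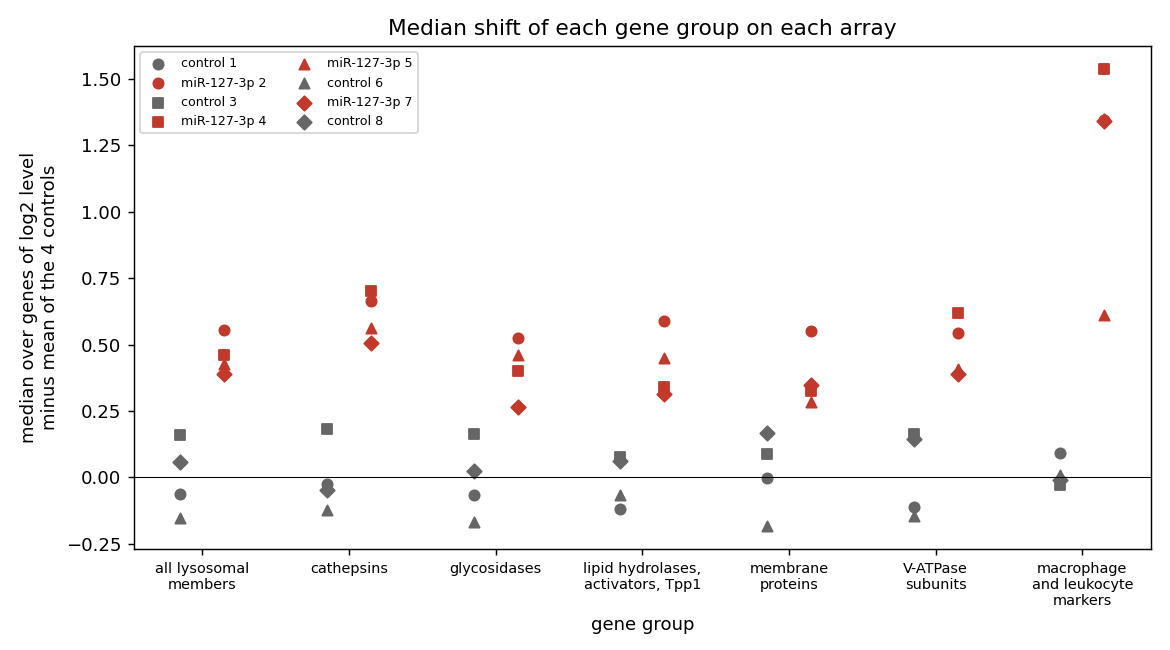
Median over genes of the log2 level minus the control mean (vertical axis) on each array, for all 42 tested members, for each role and for the macrophage and leukocyte markers. Grey symbols are controls and red symbols mimic arrays; in each role the 4 mimic arrays lie above the 4 controls, and for the marker list miR-127-3p 5 (0.61) lies below the other mimic arrays.

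Markers of other cells that skin cultures can hold stand beside all features with a symbol, of which 18.2% rose and 20.1% fell. Each of these lists held few tested genes. The median change was 0.70 for the keratinocyte markers (3 of 3 above 0) and 0.97 for the melanocyte markers (4 of 5 above 0). It was -1.04 for the muscle markers (0 of 4 above 0), 0.03 for the endothelial (1 of 2) and 0.17 for the adipocyte markers (3 of 4). Of the tested keratinocyte markers 1 of 3 rose (Krt10, 0.36; adjusted p = 0.0540 with the slide column as a block), and of the melanocyte markers 1 of 5 (Pmel, 2.14-fold), a pigment organelle gene whose call was lost without control 1, 6 or 8 or miR-127-3p 2, 4 or 7 (adjusted p up to 0.103). Of the tested endothelial (2), muscle (4) and adipocyte (4) markers 0 passed the test. The endothelial marker Cdh5, too dim to be tested, was well above background on 0 control and 3 mimic arrays, and each mimic array (-2.89 to -1.34) lay above each control (-4.67 to -3.39). Their summed levels overlapped between the groups in each of these 5 lists.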

How the data were processed

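RNA from 8 samples was read in 1 dye (Cy3) on 8 Agilent mouse expression arrays. Per the file headers, processed intensity came from Agilent's Feature Extraction (version 11.5.1.1), which reports background subtraction and spatial detrending. The authors' deposited matrix holds log2 values that differ from the scanner's only by a constant on each array. GeneSpring 14.9.1 is named in the series' design text. Samples were grouped by title; the treatment label of controls 3 and 6 names both oligonucleotides, while title and source name say control.

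Control spots (3671 of 62976) and outlier spots were left out and each array's 75th percentile was subtracted from its log2 signals. Accessions were matched to RefSeq symbols (28331 of 55681 probes). A probe was tested if well above background on at least 4 of 8 arrays, and 17106 features remained (12044 with a symbol). The test was two-sided with Benjamini-Hochberg adjustment over all features (limma 3.58.1, R 4.3.3), and was tested on simulated data. Array probes carry no coordinates here, since the array's build differs from that of the RefSeq table (GRCm38.p6). The number of arrays limits the precision. No member's spot was saturated. Every member is named; values on every array are given, in each role, for up to 4 genes with the smallest p past the threshold, every gene that fell, the gene with the largest p, and Tfeb, Glb1, Lamp1 and Lamp2. Of other lysosomal genes, up to 4 per direction and sublist are named, and 1 of these is not reported here. The members and lists were chosen with earlier results of these data known. Alternatives changed the background correction, scaling, filter, choice of probe, slide blocks, variance model and arrays used. The unprocessed median signal of each spot replaced the planned mean signal in the normexp alternative, because the tables used here hold only the former. This was decided after seeing the files.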

Additional observations from a re-analysis of the deposited data

Results flagged for a closer look

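A single sample stood far from the 3 others of its group in 3 of the 84 groups of 4 arrays checked (42 genes in 2 groups each), where chance flags about 1 group in 20. Ctsd in controls had its highest level in control 3 (6.41, the next being 6.05). Tpp1 in controls had its lowest level in control 6 (0.89, the next being 1.18). Lamp1 in controls also had its lowest level in control 6 (7.40, the next being 7.63). Without any one of the 8 arrays Ctsd, Tpp1 and Lamp1 kept their calls.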

How the results depend on the processing

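The groups share no replicate numbers, so samples were not paired by number; each slide column holds 1 control and 1 mimic array, and the fit with the column as a block compares within these pairs of positions. Over 20 alternatives no called member turned its direction, and the members' median stayed between 0.42 and 0.53. Of the 27 called members, 3 (Ctsd, Tpp1 and Atp6v1d) kept the call in all 20 settings, and 19 kept it with each single array left out; of the 15 uncalled members 5 were called in at least 1 setting. The cathepsins' median of 0.64 became 0.42 with normexp background correction. The cause was not tested for any of these shifts; the settings on 1 slide row use fewer arrays.

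Without a filter on dim probes, all features called numbered 3657 in place of 5855. Of the members 17 were higher and 0 lower, among them 2 glycosidases and 1 membrane protein, and of the other lysosomal genes 22 were higher and 1 lower. With the slide column as a block, 17 members were higher and 0 lower, among them 2 glycosidases and 1 membrane protein, and 1 other lysosomal gene was lower. On slide row 1 alone, all features called numbered 1763. There 10 members were higher and 0 lower, with 4 cathepsins, 1 glycosidase, 0 membrane proteins and 3 V-ATPase genes higher, and 10 of the other lysosomal genes were higher and 1 lower. On slide row 2 alone, all features called numbered 1611. There 5 members were higher and 0 lower, with 2 cathepsins, 0 glycosidases, 1 gene of the lipid group, 0 membrane proteins and 2 V-ATPase genes higher, and 4 of the other lysosomal genes were higher and 0 lower.

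With each single array left out in turn, 20 to 28 members were higher and 0 to 1 lower. The counts ran from 6 to 8 for cathepsins, 3 to 5 for glycosidases, 2 to 3 for the lipid group, 1 to 4 for membrane proteins and 7 to 9 for the V-ATPase. Of the other lysosomal genes 27 to 36 were higher and 1 to 3 lower, and all features called ran from 4323 to 5792.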
